A study of Mus musculus with 6 samples.

Results

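The transcripts described are the 10 genes of vascular endothelial growth factor (VEGF) and angiopoietin signalling chosen by symbol, 5 receptors (Kdr, Flt1, Flt4, Tek and Tie1) and 5 ligands (Vegfb, Vegfc, Pgf, Angpt1 and Angpt2), out of 22477 gene symbols in the count table. All 10 were in the table and all 10 passed the filter on low counts that left 18027 genes. RNA came from 4 lung tumors and from 2 samples of normal lung, each from its own mouse. All mice had the RPM genotype, in which Cre removes floxed Rb1 and Trp53 and turns on the MycT58A allele, a stabilized form of Myc. The labels give Ad5CGRP-Cre, an adenovirus whose CGRP promoter drives Cre in pulmonary neuroendocrine cells, for tumor and normal samples alike, and describe intratracheal induction at 8 weeks of age. The age at sampling and a drug arm are not given for these samples. Libraries keep the numbers of their titles, tumors 3 to 6 and normal lungs 1 and 2.

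The VEGF family binds 3 receptor tyrosine kinases of vessel cells: Kdr, the main mitogenic receptor of blood endothelium, Flt1, a high-affinity receptor with weak kinase activity that also acts as a decoy, and Flt4, which serves lymphatic growth. Vegfb and Pgf bind Flt1 but not Kdr, and Vegfc binds Flt4 and, after processing, Kdr. The angiopoietins bind Tek, also called Tie2, whose partner Tie1 has no firmly established ligand of its own. Angpt1, made largely by cells around the vessel, keeps endothelium quiet, whereas Angpt2, made by endothelium itself, is mostly an antagonist of Tek that loosens vessels.

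Library totals were 54735438 to 70817440 counts in tumors and 99122494 and 91049413 counts in normal lung. Rows picked by symbol as structural RNAs, microRNAs and histones took 7.20 to 15.8% of tumor counts and 0.364 and 0.724% of normal counts. Many of these RNAs, but not all, have no poly(A) tail. CPM stands for counts per 1000000 of the scaled library total. Myc stood at 70.2 to 175 CPM in tumors and at 7.90 and 18.2 CPM in normal lung. Rb1 stood at 42.9, 74.3, 80.2 and 53.0 CPM in tumors 3 to 6 and at 83.5 and 72.0 CPM in normal lungs 1 and 2, so the groups overlapped, and Trp53 at 9.42 to 15.8 CPM in tumors and at 21.5 and 22.6 CPM in normal lung. These are counts over whole genes, which take in exons outside a deletion. The tissue labels were checked on markers. Of all genes tested, 32.6% were called lower in tumors and 31.3% higher (edgeR, adjusted p under 0.05). All 10 neuroendocrine markers were higher in tumors (summed level 796 to 1417 CPM, against 18.9 and 23.6 CPM in normal lung), and all 7 lung epithelial markers were lower (63.0 to 702 CPM in tumors, 44332 and 48905 CPM in normal lung). Of 13 muscle markers 8 were lower and 5 did not pass, and they were uneven within both groups, with sums of 10.8 to 519.8 CPM in tumors and 321 and 797 CPM in normal lung. The number of muscle markers lower was 5 without tumor 5 and 2 without normal 2. P-values measure the spread between these mice.

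Promoter sequence is shown for the 3 receptors whose windows matched a motif searched for and, beside them, for the ligand that rose, which had no match. The sequences are from RefSeq on GRCm38.p6, which held a promoter for 8 of the 10 genes, and run from 250 bases before to 50 after the gene start. Capitals mark matches, on either strand, to any of 4 motifs. The first was the core of sites for ETS factors, AGGAAG. The second was a motif for GATA factors, AGATAA. The third was the core of hypoxia response elements, ACGTG. The last was the E-box that Myc binds, CACGTG, which contains the hypoxia core. The windows are chr5:147725962-147726261 on the minus strand for Flt1, chr4:118489800-118490099 on the minus strand for Tie1, chr4:94739039-94739338 on the plus strand for Tek and chr19:6987602-6987901 on the minus strand for Vegfb.
Flt1: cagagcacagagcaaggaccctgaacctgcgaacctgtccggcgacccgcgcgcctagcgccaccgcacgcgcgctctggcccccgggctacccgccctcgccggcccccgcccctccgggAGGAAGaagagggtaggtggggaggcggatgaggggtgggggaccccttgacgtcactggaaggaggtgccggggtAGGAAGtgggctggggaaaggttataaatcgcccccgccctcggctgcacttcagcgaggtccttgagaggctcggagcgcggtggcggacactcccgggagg
Tie1: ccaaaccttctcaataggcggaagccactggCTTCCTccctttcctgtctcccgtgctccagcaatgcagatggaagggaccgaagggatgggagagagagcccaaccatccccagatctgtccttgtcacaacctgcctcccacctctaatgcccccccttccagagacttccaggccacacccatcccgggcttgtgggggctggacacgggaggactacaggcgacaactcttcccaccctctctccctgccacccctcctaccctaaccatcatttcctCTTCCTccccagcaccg
Tek: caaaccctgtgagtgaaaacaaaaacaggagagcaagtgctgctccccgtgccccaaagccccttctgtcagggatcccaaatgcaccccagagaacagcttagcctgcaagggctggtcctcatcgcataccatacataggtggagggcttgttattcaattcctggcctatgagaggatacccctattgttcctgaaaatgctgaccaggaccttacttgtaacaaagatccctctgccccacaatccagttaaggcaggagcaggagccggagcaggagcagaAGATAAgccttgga
Vegfb: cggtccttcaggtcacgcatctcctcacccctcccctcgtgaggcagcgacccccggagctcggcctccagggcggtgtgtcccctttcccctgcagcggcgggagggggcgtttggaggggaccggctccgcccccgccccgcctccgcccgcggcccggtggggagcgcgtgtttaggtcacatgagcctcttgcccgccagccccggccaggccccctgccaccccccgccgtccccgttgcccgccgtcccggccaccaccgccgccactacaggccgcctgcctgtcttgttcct
Flt1 and Tie1 held 2 ETS cores each, and Tek held 1 GATA motif downstream of its start. The windows of Kdr, Flt4, Vegfb, Vegfc and Pgf (with 2 annotated starts) held none of the 4 motifs, and no member's window held the hypoxia core or the E-box. Of 32851 promoters of this length, 35.4% held the ETS core, 11.2% the GATA motif, 19.6% the hypoxia core and 7.15% the E-box. ETS and GATA factors act at many endothelial genes. A match to these letters is a description of the window only.

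All 5 receptors were lower in tumors, by 22.1-fold to 75.4-fold, and in each of them every tumor lay below both normal lungs. Across all genes tested, 32.6% were called lower by the same test (edgeR quasi-likelihood, Benjamini-Hochberg adjusted p under 0.05), and in 39.8% every tumor was below both normal libraries. The median log2 fold change was -5.48 over the 5 receptors and 0.02 over all genes tested. In whole tissue, fewer cells of a type and less RNA per cell cannot be told apart.

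Kdr stood at 7.60, 6.38, 10.5 and 7.85 CPM in tumors 3 to 6 and at 603 and 552 CPM in normal lungs 1 and 2. The tumor values lay close together, all far under the normal ones. The log2 fold change was -6.16 ± 0.23 (SE), or 71.3-fold lower (adjusted p = 2.46e-05, edgeR).

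Tek, the angiopoietin receptor, fell by the most of the 10. Its level was 7.87, 4.42, 10.8 and 7.20 CPM in tumors 3 to 6 and 587 and 555 CPM in normal lungs 1 and 2. Tumor 4 was lowest and tumor 5 highest, a spread of 2.44-fold, wider than for the other receptors. The log2 fold change was -6.24 ± 0.35 (SE, adjusted p = 4.32e-05, edgeR), a 75.4-fold decrease. Only 0.660% of the genes tested had a lower fold change than Tek, and 0.732% a lower one than Kdr.

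Tie1, the orphan partner of Tek, stood at 7.79, 5.40, 8.47 and 5.18 CPM in tumors 3 to 6 and at 314 and 286 CPM in normal lungs 1 and 2. Its decrease was 44.7-fold, a log2 fold change of -5.48 with an SE of 0.25 (adjusted p = 2.98e-05, edgeR). Flt1, the decoy receptor, stood at 7.29, 11.9, 8.23 and 8.47 CPM in tumors and at 278 and 270 CPM in normal lung. It was the 1 receptor with its highest tumor value in tumor 4, and was 30.5-fold lower, a log2 fold change of -4.93 with an SE of 0.22 (adjusted p = 2.95e-05, edgeR). Flt4, the lymphatic receptor, stood at 2.09, 2.00, 3.28 and 2.78 CPM in tumors and at 59.6 and 53.0 CPM in normal lung. Its fold change was the smallest of the 5 receptors, 22.1-fold or -4.47 on the log2 scale (SE 0.26, adjusted p = 4.62e-05, edgeR).

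**Figure D1:**
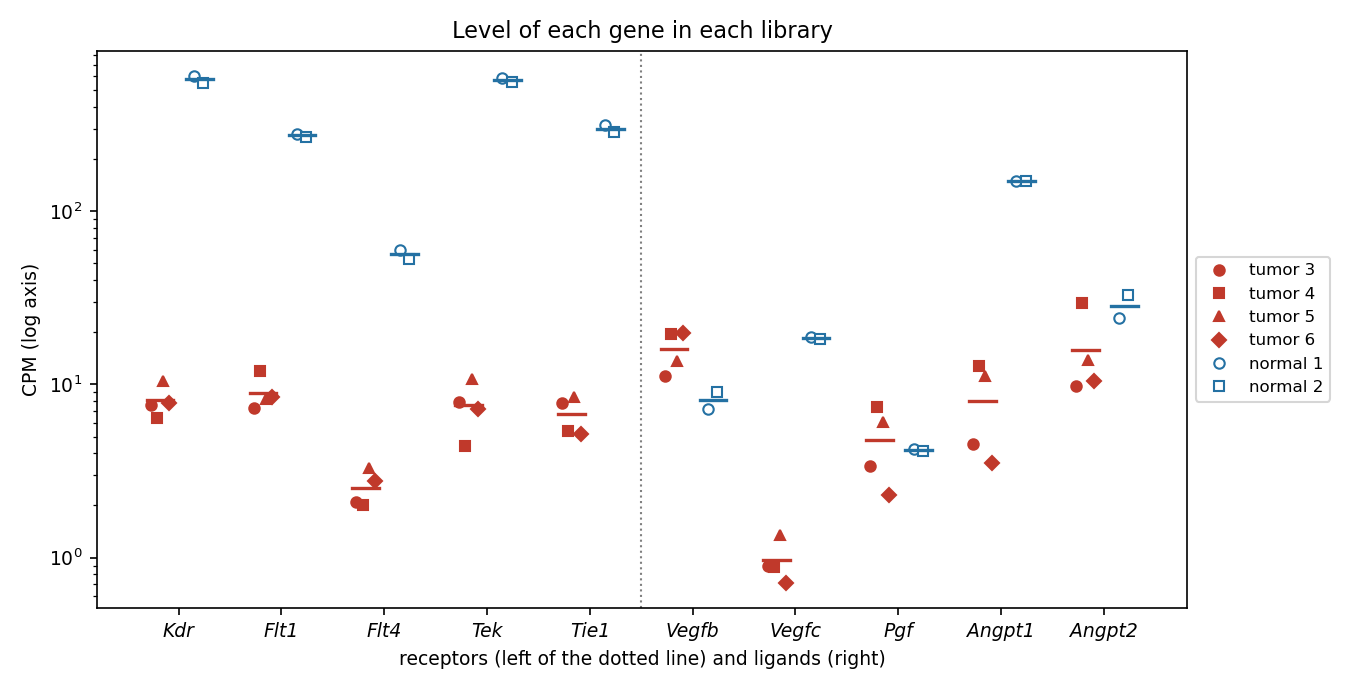
Level of the 10 genes in CPM (log axis) in each tumor (filled, left) and each normal lung (open, right), with a line at each group's mean. All receptors, Vegfc and Angpt1 lie far lower in tumors, Vegfb lies higher in every tumor, and Pgf and Angpt2 overlap between the groups.

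Levels of different genes were compared as CPM per kilobase of annotated exon. In tumors the order was Tek (1.61 ± 0.555), Tie1 (1.36 ± 0.339), Kdr (0.896 ± 0.193), Flt1 (0.664 ± 0.149) and Flt4 (0.308 ± 0.0737; SD, n = 4). In tumors the ranges of neighbors in that order overlapped, except that Flt4 lay below the rest. Within every single tumor, however, Tie1 lay above Kdr. In normal lung the order was Tek (121 ± 4.71), Kdr (64.0 ± 3.95), Tie1 (61.0 ± 4.03), Flt1 (20.3 ± 0.429) and Flt4 (6.84 ± 0.569; SD, n = 2). There the ranges of Kdr and Tie1 overlapped, but Kdr lay above Tie1 within each normal library. Tek took 32.5 ± 5.64% of the summed receptor level in tumors and 44.4 ± 0.499% in normal lung, and Kdr took 18.5 ± 1.04% and 23.4 ± 0.275% in the same order. Flt1 took 14.5 ± 5.84% in tumors and 7.42 ± 0.215% in normal lung, and Flt4 took 6.39 ± 1.01% in tumors and 2.50 ± 0.0831% in normal lung.

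The ligands did not move as 1 group. Of the 5, Vegfc and Angpt1 were lower, Vegfb was higher, and Pgf and Angpt2 did not pass the test. Over all genes tested, 32.6% were called lower and 31.3% higher. In 39.8% of them every tumor was below both normal libraries, and in 37.4% every tumor was above both. Of the ligands, 2 had every tumor below both normal lungs and 1, Vegfb, had every tumor above. With 5 ligands, these counts do not stand apart from the shares over all genes.

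Vegfb, a ligand of Flt1 linked to fatty acid handling and heart muscle vessels, stood at 11.2, 19.6, 13.7 and 19.7 CPM in tumors 3 to 6 and at 7.25 and 9.03 CPM in normal lungs 1 and 2. It was higher in 4 of 4 tumors, with tumors 4 and 6 about level. The log2 fold change was 0.98 ± 0.32 (SE, adjusted p = 0.0331, edgeR), or 1.97-fold. The call was lost without normal 1 (0.82, adjusted p = 0.203) and without normal 2 (1.13, adjusted p = 0.103), fits in which a single normal library takes its spread from the tumors. Muscle, a tissue rich in Vegfb, was unevenly present. Tumor 6 alone held much Acta1, the actin of skeletal muscle (321 CPM, against 1.05 to 1.97 CPM in the other tumors), while the heart myosin gene Myh6 stood at 64.7 and 239 CPM in normal lungs and at most at 10.6 CPM in tumors. Without tumor 6 the log2 fold change of Vegfb was 0.95 (adjusted p = 0.0394), and the part of muscle in the normal values was not tested.

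Vegfc, the lymphatic growth factor, stood at 0.894, 0.884, 1.35 and 0.718 CPM in tumors 3 to 6 and at 18.9 and 18.2 CPM in normal lungs 1 and 2. Tumor 5 was highest, as it was for Kdr, Flt4, Tek and Tie1. The decrease was 19.2-fold, or -4.26 on the log2 scale (SE 0.32, adjusted p = 0.000107, edgeR). Tumor libraries held 45 to 104 counts of it, the fewest of any member.

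Pgf, placental growth factor, stood at 3.38, 7.42, 6.06 and 2.30 CPM in tumors 3 to 6, on both sides of 4.23 and 4.13 CPM in normal lungs 1 and 2. Its spread among tumors was 3.22-fold. The log2 fold change was 0.20 ± 0.51 (SE, adjusted p = 0.753, edgeR), with a 95% interval of -1.03 to 1.42, which spans levels of 0.490 to 2.68 times that of normal lung. Without tumor 4 the value was -0.0904.

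Angpt1, the agonist of Tek, stood at 4.53, 12.7, 11.1 and 3.53 CPM in tumors 3 to 6 and at 149 CPM in both normal lungs. Tumors 4 and 5 were high and tumors 3 and 6 low, a 3.60-fold spread and the widest of the 10, yet all 4 lay under the normal samples. The log2 fold change was -4.23 ± 0.53 (SE, adjusted p = 0.000666, edgeR), an 18.7-fold decrease. In the GRCm38 annotation its exons share 737 bases with the antisense gene Gm17473, and the strand setting of the counting is not given in the sources used here, so these reads cannot be told apart.

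Angpt2 stood at 9.76, 29.4, 13.9 and 10.5 CPM in tumors 3 to 6 and at 24.2 and 32.9 CPM in normal lungs 1 and 2. Tumors 3, 5 and 6 lay below both normal lungs and tumor 4 lay between them. The log2 fold change was -0.85 ± 0.47 (SE, adjusted p = 0.156, edgeR), with a 95% interval of -1.97 to 0.28. Without tumor 4 it was -1.32 and passed (adjusted p = 0.00508), and with limma voom it was -1.02 (adjusted p = 0.0464). Angpt2 lies inside Mcph1 on the opposite strand, with no exon bases shared. Mcph1 stood at 29.5, 42.9, 35.0 and 47.9 CPM in tumors 3 to 6 and at 7.70 and 9.14 CPM in normal lung, and its part in the Angpt2 counts was not tested.

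**Figure D2:**
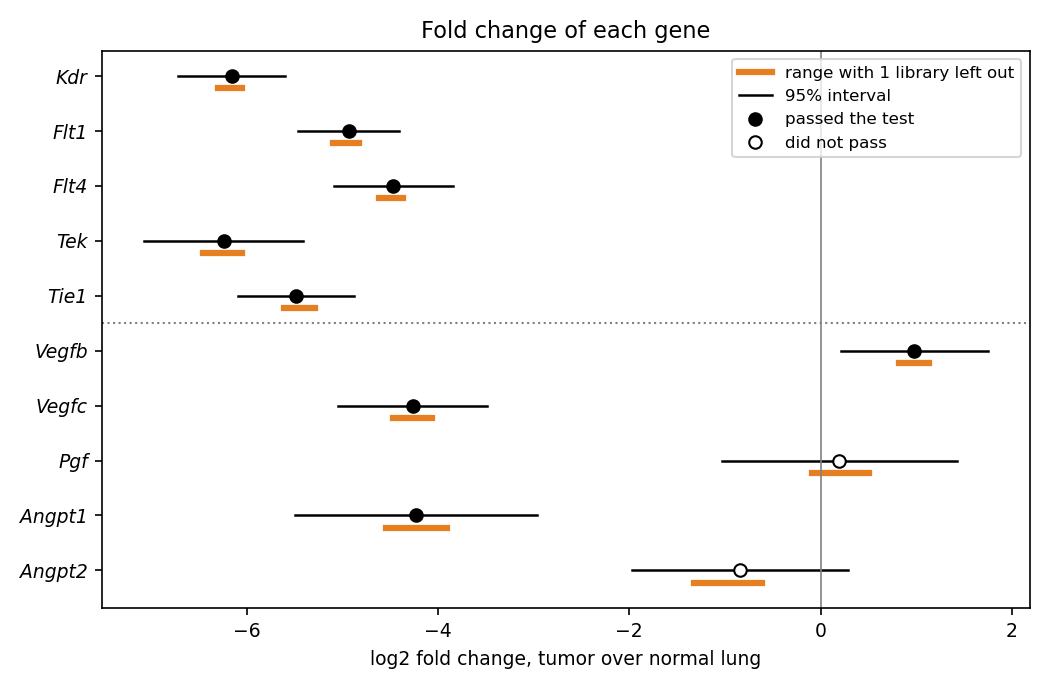
Log2 fold change of each gene, tumor over normal lung, with its 95% interval (black), and the range when 1 library was left out (orange). The 5 receptors lie between -6.24 and -4.47, while the ligands run from -4.26 for Vegfc to 0.98 for Vegfb.

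Because the ligands moved unequally, their make-up differed between the groups. Of the summed CPM per kilobase of these 5 ligands, Vegfb took 57.1 ± 11.3% in tumors (SD, n = 4) and 10.0 ± 1.10% in normal lung (SD, n = 2). Angpt1 took 8.34 ± 3.61% in tumors and 56.8 ± 2.46% in normal lung, and Vegfc took 2.36 ± 0.918% in tumors and 15.0 ± 1.07% in normal lung. Angpt2 took 23.0 ± 5.97% and Pgf 9.16 ± 3.19% in tumors, against 15.3 ± 2.60% and 2.85 ± 0.174% in normal lung. The sum itself was 12.0, 25.5, 17.0 and 16.9 CPM per kilobase in tumors 3 to 6 and 48.9 and 52.1 in normal lungs 1 and 2. A larger share is therefore not a higher level, and Pgf and Angpt2 did not pass the test. The sum covers these 5 genes and no other ligand of the receptors, so a share is not one of all ligand transcripts in a library.

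**Figure D3:**
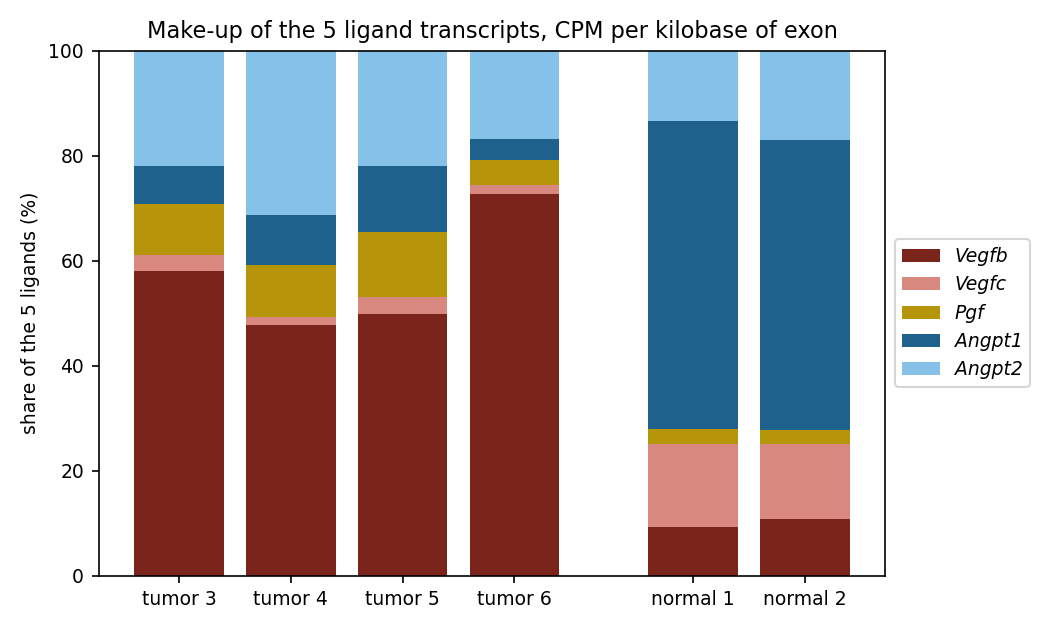
Share of each ligand in the summed CPM per kilobase of the 5 ligands, for tumors (left) and normal lungs (right). Vegfb takes 47.8 to 72.7% in tumors and 9.24 and 10.8% in normal lung, where Angpt1 takes 58.6 and 55.1%.

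The angiopoietins compete for Tek, so their ratio was taken within each library. Angpt2 had 2.15, 2.31, 1.25 and 2.98 counts per count of Angpt1 in tumors 3 to 6, and 0.162 and 0.220 in normal lungs 1 and 2. Angpt2 exceeded Angpt1 in all 4 tumors and in neither normal lung. The mean log2 ratio was 1.05 ± 0.527 in tumors (SD, n = 4) and -2.40 ± 0.309 in normal lung (SD, n = 2), a difference of 3.45 or 10.9-fold. The exact two-sided permutation test gave p = 0.0667, the smallest that 4 libraries against 2 allow, so this design could not pass 0.05. Leaving out each library in turn gave differences of 3.23 to 3.70. Of the pair, Angpt1 passed the test across all genes and Angpt2 did not.

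Endothelial markers, none of them a member, fell nearly as a whole, where 32.6% of all genes tested were called lower. Of 28, 27 were lower by edgeR and 0 higher (also 0 at an unadjusted p under 0.05, by DESeq2 and by limma voom), and Fli1 did not pass (43.4 ± 30.0 CPM in tumors, SD, n = 4, and 62.8 ± 1.78 CPM in normal lung, SD, n = 2). Their median log2 fold change was -5.14 and their summed level was 205 to 368 CPM in tumors and 11827 and 13228 CPM in normal lung. No marker was at 0 in any library. Eng, a TGF-beta coreceptor of endothelium, was 58.4-fold lower (adjusted p = 2.36e-05, edgeR), Sox7, a vascular transcription factor, 74.0-fold lower and S1pr1, the sphingosine phosphate receptor of vessels, 36.0-fold lower. The receptors and the markers of the cells that carry them were low in the same 4 samples.

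Each member was therefore also set against the mean log2 CPM of these 28 markers within each library. Kdr stood 0.44 ± 0.406 above that mean in tumors (SD, n = 4) and 1.43 ± 0.00767 above it in normal lung (SD, n = 2), a difference of -0.99 on the log2 scale, with 4 of 4 tumors below both normal lungs. Tek stood 0.30 ± 0.555 above it in tumors and 1.41 ± 0.0408 above it in normal lung, a difference of -1.11, also in 4 of 4. The difference for Tie1 was -0.32, again in 4 of 4 tumors, and for Flt1 it was 0.24, with tumors on both sides. Flt4 and Vegfc differed the other way, by 0.70 and 0.92, with 4 of 4 tumors above both normal lungs. Apart from Fli1, the markers' own log2 fold changes ran from -7.93 to -3.10. That range holds the fold changes of all the receptors and of Vegfc, so these differences lie within the spread of the markers.

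Vegfb, Angpt2 and Pgf had the largest differences. Vegfb lay 1.41 ± 0.723 above the marker mean in tumors and -4.72 ± 0.320 from it in normal lung (SD), a difference of 6.13. Angpt2 differed by 4.21 and Pgf by 5.24, each with every tumor above both normal lungs. The marker mean itself was 2.03 to 2.82 log2 CPM in tumors and 7.81 and 7.68 in normal lungs 1 and 2. A gene at the same level in both groups therefore also lies higher in every tumor on this scale. Such a position alone does not set these ligands apart. Angpt1, whose source is mostly around the vessel, differed by 0.76 with 3 of 4 tumors above. Over the 10 relations, exact two-sided permutation p-values ran from 0.0667, the smallest possible, for Kdr, Vegfb, Vegfc, Pgf and Angpt2, to 0.667 for Flt1. After adjustment over the 10 relations the lowest was 0.133, so none passed.

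**Figure D4:**
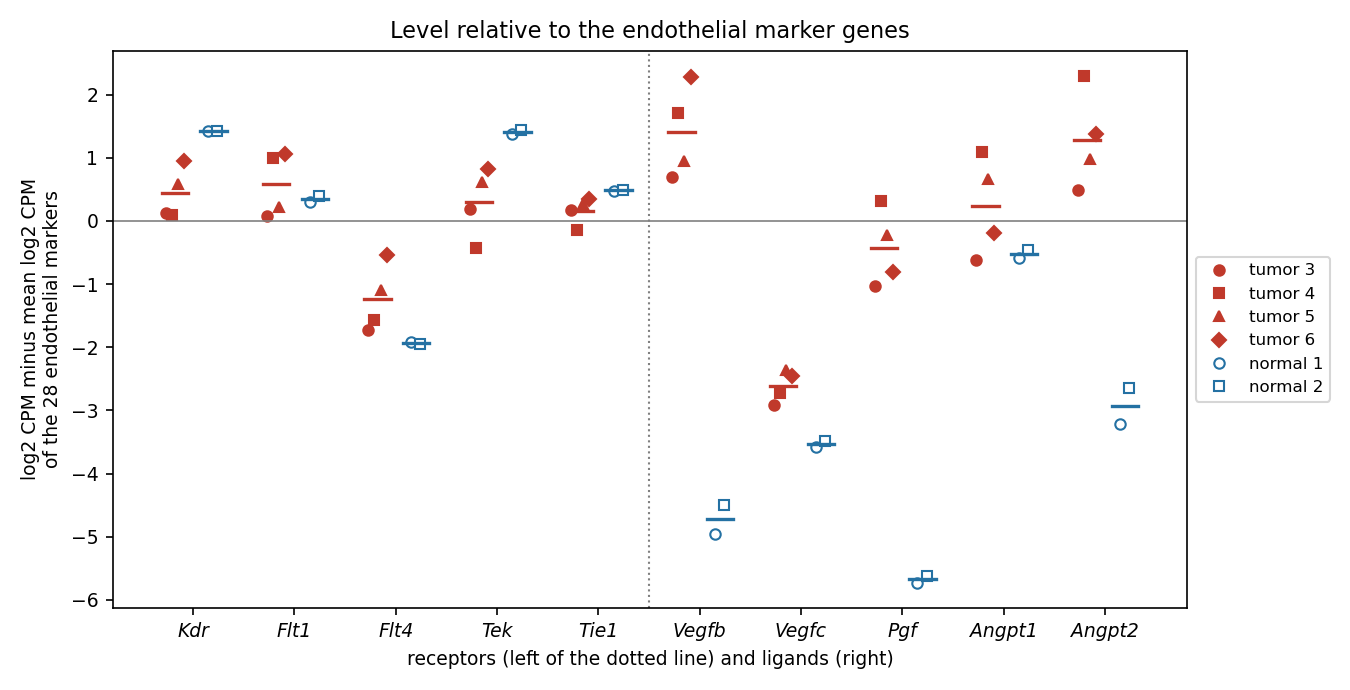
Log2 CPM of each gene minus the mean log2 CPM of the 28 endothelial markers in the same library, for tumors (filled, left) and normal lungs (open, right), with lines at the means. Kdr, Tek and Tie1 lie lower in every tumor, and Vegfb, Pgf and Angpt2 lie higher by 4.21 to 6.13 on average. The marker mean itself is far lower in tumors, so a gene at the same level in both groups also lies higher.

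Among the tumors, tumor 5 was highest for Kdr, Flt4, Tek, Tie1 and Vegfc, and tumor 4 was highest for Flt1, Pgf, Angpt1 and Angpt2. Tumor 4 was at the same time lowest for Kdr, Flt4 and Tek. The coefficient of variation among tumors was 21.6 to 34.5% for the receptors and 57.9% for Angpt1, 57.7% for Angpt2 and 49.2% for Pgf, while Vegfb (26.7%) and Vegfc (28.4%) lay within the range of the receptors. No tumor stood apart from the other 3 by Dixon's test on any of the 10 genes, where the widest gap was that of tumor 4 for Angpt2 (0.790 of the range).

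Profiles over the 6 libraries were compared with those of 10610 genes by the root mean square difference of centred log2 CPM, which is dominated by the distance between tumor and normal lung. The gene nearest to Kdr was Tek, followed by Eng (0.201) and Prelp (0.248). For Tek the nearest was not Kdr but Lyz1 (0.162), followed by Kdr and Scn7a (0.322). For Flt1 the nearest were Ephx1 (0.147), Lifr (0.156) and Klhl5. Nearest to Tie1 were She (0.120), Pmp22 (0.126) and Adcy4 (0.127), and nearest to Flt4 were Utrn (0.0905), Zbtb4 (0.105) and Notch1 (0.114). Nearest to Vegfb were Dvl1 (0.0707), Heatr1 (0.0894) and Polr3e (0.0923), and nearest to Angpt2 were Cacnb3 (0.189), Cables1 (0.191) and Gadd45b (0.195). Of the 20 genes nearest to each member, 3 were endothelial markers for Tie1 and 2 for each of Kdr, Tek and Vegfc. Flt1, Flt4 and Angpt1 had 1 each, and Vegfb, Pgf and Angpt2 had none. Of the 10610 genes compared, 23 were endothelial markers.

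Coreceptors and receptor partners mostly fell with the receptors. Of 14, 12 were lower and 1 higher, and 1 did not pass, where 32.6% of all genes tested were lower and 31.3% higher. The median of their log2 fold changes was -2.78. Ptprb, the vascular phosphatase that acts on Tek, stood at 23.8 ± 6.99 CPM in tumors (SD, n = 4) and 1435 ± 184 CPM in normal lung (SD, n = 2), 60.3-fold lower (adjusted p = 4.46e-05, edgeR). Cdh5, the cadherin of endothelial junctions, was 47.7-fold lower and Sema3f, a secreted neuropilin ligand, 27.5-fold lower.

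The neuropilins, coreceptors shared by VEGF and semaphorin ligands, differed from each other. Nrp1 stood at 27.5, 30.0, 57.5 and 31.8 CPM in tumors 3 to 6 and at 859 and 742 CPM in normal lungs 1 and 2, and fell (log2 fold change -4.45). Nrp2 stood at 192, 56.9, 110 and 153 CPM in tumors and at 94.3 and 95.3 CPM in normal lung, and did not pass (0.44 ± 0.45, SE, adjusted p = 0.418, edgeR). Grb10, an adaptor that binds several receptor kinases, was the 1 gene higher (5.40-fold). Tumor 4 lay near normal lung for it, at 96.2 CPM against 87.8 and 91.2 CPM. The call was lost without tumor 3, tumor 5, normal 1 or normal 2, and log2 fold changes with 1 library left out ran from 2.23 to 2.78.

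Of 18 other ligands and inhibitors of the pathway, 12 were lower, 2 higher and 4 did not pass (median -2.71). Among all genes tested the shares were 32.6% lower and 31.3% higher. Figf, the gene of VEGF-D, stood at 1.24, 2.04, 1.37 and 1.24 CPM in tumors 3 to 6 and at 21.2 and 26.3 CPM in normal lungs 1 and 2, 16.1-fold lower (log2 fold change -4.01, SE 0.30, adjusted p = 0.000104, edgeR). Svep1, a matrix protein that binds angiopoietins, was 30.3-fold lower, and Timp3, an inhibitor of VEGF binding to Kdr, 23.4-fold lower. In GRCm38 the exons of these overlap genes on the other strand, Gm26889 and Syn3, so their reads are uncertain. The 2 that rose were the vasohibins. Vash2 stood at 32.0 ± 4.87 CPM in tumors (SD, n = 4) and 0.781 ± 0.573 CPM in normal lung (SD, n = 2), 41.0-fold higher (adjusted p = 0.000356, edgeR), and Vash1 was 2.26-fold higher. Vasohibins were described as regulators of angiogenesis and also remove tyrosine from tubulin, an activity of neurons.

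Of 25 genes that act below the receptors or respond to them, 19 were lower, 1 was higher and 5 did not pass (median -1.29). The shares over all genes tested, 32.6% lower and 31.3% higher, apply to the lists of this paragraph. Hlx, a homeobox gene of vessels and other tissues, was 18.7-fold lower, Foxo1, a transcription factor restrained by Angpt1 and Tek, 11.6-fold lower, and the small heat shock protein gene Hspb1 31.5-fold lower. Prkcb, a protein kinase C gene, was 3.36-fold higher, with a call lost without tumor 3, tumor 5, normal 1 or normal 2 (log2 fold change 1.44 to 2.11 with 1 library left out). Without normal 1 the number lower was 11, and without tumor 6 the number higher was 2. Of 16 genes of endothelial tip cells, the leading cells of a sprout, 12 were lower and 0 higher by edgeR (also 0 higher at an unadjusted p under 0.05, by DESeq2 and by limma voom), with a median of -2.39. The laminin gene Lamb1 was 8.56-fold, the mural cell attractant Pdgfb 26.1-fold and the adhesion gene Mcam 7.57-fold lower. Genes in these lists are expressed by other cells as well, and Foxo1 shares 674 exon bases with Gm20402 on the opposite strand in GRCm38.

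**Figure D5:**
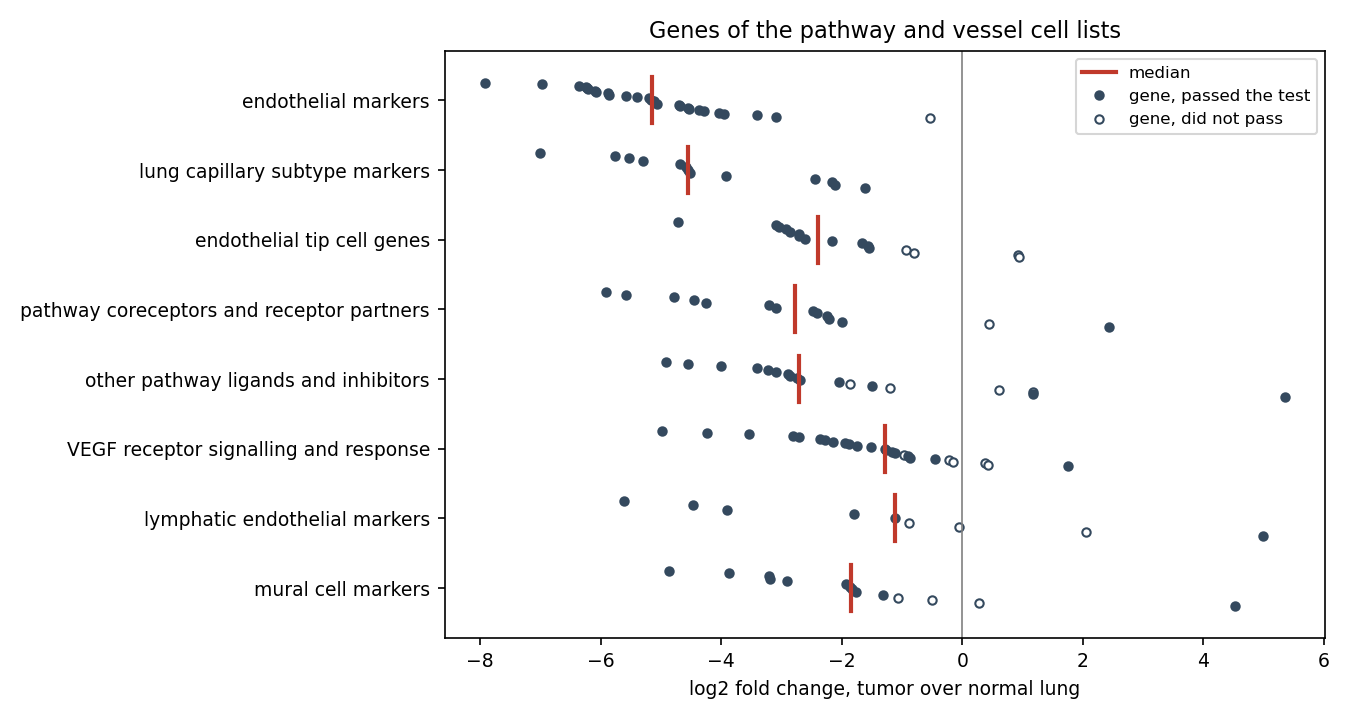
Log2 fold change, tumor over normal lung, of each gene in the vessel and pathway lists, filled where the test was passed, with a bar at each list's median. Medians run from -5.14 for endothelial markers to -1.12 for lymphatic markers, and the rightmost points are Vash2, Prox1 and Rgs5.

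Cells that Flt4 and Vegfc serve, and those that make Angpt1, were followed through their markers. Their counts stand beside 32.6% of all genes tested called lower and 31.3% called higher. Of 9 lymphatic markers tested, 5 were lower, 1 was higher and 3 did not pass, with a summed level of 205 to 440 CPM in tumors and 890 and 1012 CPM in normal lung. Lyve1, the hyaluronan receptor of lymphatics, was 49.0-fold lower, Mmrn1, a matrix protein of lymphatic vessels, 14.9-fold lower and Pdpn, which alveolar type 1 cells share, 22.2-fold lower. Prox1, the lymphatic homeobox factor that neural and endocrine cells also use, was 31.8-fold higher. It made up 84.6 to 165 CPM of the tumor sums and 1.89 and 6.57 CPM of the normal ones. Reln, a listed gene that did not pass, made up 16.1 to 196 CPM in tumors and 19.5 and 21.5 CPM in normal lung. Without tumor 4, 2 lymphatic markers were higher, as with DESeq2. Of 14 mural markers, 10 were lower, 1 was higher and 3 did not pass (summed level 292 to 364 CPM in tumors, 969 and 1111 CPM in normal lung). Pdgfrb, the receptor of pericytes, was 7.51-fold lower, Myh11, the smooth muscle myosin, 29.0-fold lower and Notch3, a receptor of mural cells, 9.17-fold lower. Rgs5, a G protein regulator used as a pericyte marker, stood at 115, 80.9, 134 and 65.6 CPM in tumors 3 to 6 and at 4.31 and 4.28 CPM in normal lungs 1 and 2. Prox1 shares 133 exon bases with Prox1os, Reln 246 with Gm10475 and Notch3 488 with Gm17276, each on the opposite strand in GRCm38. The part of these cells in the levels of Flt4, Vegfc and Angpt1 was not tested.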

How the data were processed

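Poly(A) RNA of flash-frozen tissue was made into NEBNext Ultra II libraries, per the labels' protocols. The deposited values are raw gene counts that the authors made with TPMCalculator, per the labels. Tools listed without a role in the submitters' processing notes are STAR 2.5.4a, Trimmomatic 0.36, Trim Galore, R 3.5.1 and DESeq2 1.22.2, with build mm9. Neither the annotation nor the strand setting of the counting is given in the sources used here.

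Counts were tested with edgeR 4.0.16 (quasi-likelihood) in R 4.3.3, with tumor or normal tissue as the sole factor. Its filterByExpr step (minimum count 10, minimum total 15, by group) left 18027 genes, over which p-values were adjusted, and libraries were scaled by TMM. The labels name no batch. The mouse numbers in the file headers set the normal mice apart from the tumor mice, and any difference that goes with this cannot be told apart from tissue. The standard error is the log2 fold change over the square root of F. CPM use TMM-scaled library sizes, and log2 CPM a prior count of 2. Exon lengths and overlaps are from GENCODE M21 on GRCm38, another build than that of the counts, and the coordinates printed are those of the RefSeq promoter windows. The fit was also run on simulated counts in which few genes were changed, evenly up and down. Most genes tested here were called, so that run does not test the scaling of these data.

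The members and the 15 lists were chosen with earlier results of these data known. Genes named besides the members are the up to 3 per direction of smallest p in a list, Nrp1, Nrp2, Figf and the 3 nearest profiles per member. Mcph1, Acta1, Myh6, Fli1, Reln and the genes that overlap named ones were chosen after values were seen. Some genes this rule names are not reported here. The list gene Ccl21a was not analysed here. Alternatives were RLE, upper quartile and total count scaling, no filter, a filter of 1 CPM throughout a group, voom of limma 3.58.1, DESeq2 1.42.0, removal of structural RNA and histone rows, and leaving out each library.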

Additional observations from a re-analysis of the deposited data

How the results depend on the processing

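All 5 receptors, Vegfc and Angpt1 were lower at adjusted p under 0.05 in each of 14 alternatives, and the count of receptors called lower was 5 throughout. Of 140 member values under alternatives, 135 kept direction and side of the threshold. The count of ligands called higher ran from 0 to 1 with 1 library left out, because Vegfb lost its call without either normal library, and the count of all genes called higher ran from 3373, without normal 1, to 5912, without tumor 4, and was 3740 without normal 2. Pgf changed sign without tumor 4 (-0.0904), and its log2 fold change ran from -0.0904 to 0.51 over the 6 leave-out fits. Angpt2 passed with limma voom and without tumor 4, and the count of ligands called lower was then 3. The cause was not tested. Upper quartile scaling moved the median of all genes by 0.12 (log2). Without a filter the median differed by 0.10, but over 21832 genes in place of 18027. In both fits every member's fold change kept its direction. The levels relative to the markers kept their direction with another prior count of 0.5, the median of the markers, markers without Fli1 (chosen after seeing the data) and each library left out, as did the angiopoietin ratio with the other prior count and each library left out. No paired analysis was possible because the groups share no replicate number. With 2 normal libraries, the spread of normal lung is poorly known, and Vegfc rests on few tumor counts.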

Other observations

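Other lists, of capillary, platelet, fibroblast, alveolar and macrophage genes, were also chosen with earlier results known. Some lists share genes with others, so their counts are not separate observations. For comparison, 32.6% of all genes tested were called lower and 31.3% higher. Of 13 genes that mark subtypes of lung capillary, all 13 were lower, with a median log2 fold change of -4.55. Cd36, a fatty acid transporter, was 39.4-fold lower, Tbx3, a T-box factor, 46.1-fold lower and Fibin, a secreted protein gene, 25.6-fold lower (edgeR quasi-likelihood test, adjusted p of 3.51e-05 to 7.18e-05). Of 8 platelet and megakaryocyte genes, 6 were lower, 1 was higher and 1 did not pass, with a summed level of 21.1 to 32.9 CPM in tumors and 55.4 and 64.0 CPM in normal lung. Gp5, a subunit of the platelet adhesion receptor, was 7.23-fold lower and Ppbp, a platelet chemokine, 62.4-fold lower. Gp1bb, another subunit of that receptor, was 5.43-fold higher, but shares 1902 exon bases on the same strand with Sept5 in GRCm38, so its counts are uncertain. Among 12 fibroblast markers 9 were lower (median -3.34), and among 9 alveolar type 1 markers all 9 were lower (median -5.47). Of 10 macrophage markers, 5 were lower, 2 higher and 3 did not pass (median -1.26). The 2 higher were C1qb (2.51-fold) and C1qc (1.94-fold), subunits of complement C1q. Both lost their call without normal 1 and without normal 2, and the number higher ran from 0 to 3 with 1 library left out.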
